A study of Mus musculus with 12 samples.

Results

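The cytochrome P450 genes of epididymal white adipose tissue (eWAT), the visceral fat pad beside the epididymis, were examined in 12 RNA-seq libraries. A gene was taken as a P450 gene when its name in the deposited expression table was Cyp followed by a number, with pseudogenes left out. This gave 98 genes with 370 transcripts, of 22868 genes in the table. The expression unit was FPKM, which scales fragments to transcript length and library total, summed over the transcripts of each gene. Of the 98 genes, 21 reached at least 1 FPKM in at least 3 libraries and were tested, among 12769 genes tested in all. Of these, 15 were at 1 FPKM or more in all 12 libraries and 6 in 6 to 9 of them. Nearest to the threshold were Cyp2f2 inside it, with 6 libraries at 1 FPKM or more, and Cyp4a14 outside it, with 2. The other 77 genes were not tested and are accounted for at the end.

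The animals were male C57BL/6J mice, 21 weeks old after 16 weeks on their diet, with 3 mice in each of 4 groups. The ND group ate a normal diet and the HFD group a high-fat diet. The CLE group ate the HFD with 1.5% (w/w) ethanol extract of chrysanthemum leaves, and the LU group ate the HFD with 0.003% (w/w) luteolin, a flavonoid of the plant. The design asks how the HFD changed the tissue relative to ND, and how the leaf extract and its flavonoid each changed it on the HFD. The mice were anesthetised after a fast, and those sequenced were described as representative of larger groups, by criteria not given in the sources used here. In bulk tissue, fewer cells of a type and less RNA per cell cannot be told apart.

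P450 enzymes are heme proteins that insert an oxygen atom into lipids, sterols, vitamins, drugs and toxins. Most sit in the endoplasmic reticulum and take electrons from P450 oxidoreductase (Por), while a few mitochondrial ones take them from ferredoxin (Fdx1). The liver is their best known site, but fat cells also express some of them, among them the ethanol- and acetone-oxidising enzyme Cyp2e1.

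Mice of 1 group correlated with each other at r = 0.978 to 0.991 over the tested genes, on the log2 scale. A letter R stands in the labels of 4 libraries (ND 3, ND 4, CLE 4 and LU 2) and in no HFD label. Its meaning was not given in the sources used here, and the P450 calls that changed when it entered the fit, or when its libraries were left out, are given after the single genes. The column headers of the same 4 libraries, and of no other library, also carry a shared added number, whose meaning was not given either. The fat cell markers Adipoq, Plin1, Lep, Fabp4, Cidec, Lipe and Lpl were abundant in every library, with a summed level of 19448 to 31201 FPKM. The library depth is unknown because no read counts were used here.

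Cyp2e1 was the most abundant P450 gene on average and, on the log2(FPKM + 1) scale, had the largest difference between HFD and ND of the 21 tested. By the ratio of mean FPKM the low gene Cyp2f2 differed more. Cyp2e1 stood at 3047, 1581 and 1405 FPKM in ND mice 2, 3 and 4. In HFD mice 12, 15 and 18 it was 139.9, 217 and 99.4 FPKM. In CLE mice 2, 4 and 11 it was 1081, 956 and 549 FPKM. In LU mice 2, 3 and 8 it was 566, 972 and 363 FPKM. Every ND library was above every CLE and LU library, and every CLE and LU library was above every HFD library, whereas the CLE and LU libraries overlapped. The group means were 2011 ± 901 FPKM in ND, 862 ± 278 in CLE, 634 ± 310 in LU and 152 ± 59.7 in HFD (SD, n = 3 each).

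**Figure D1:**
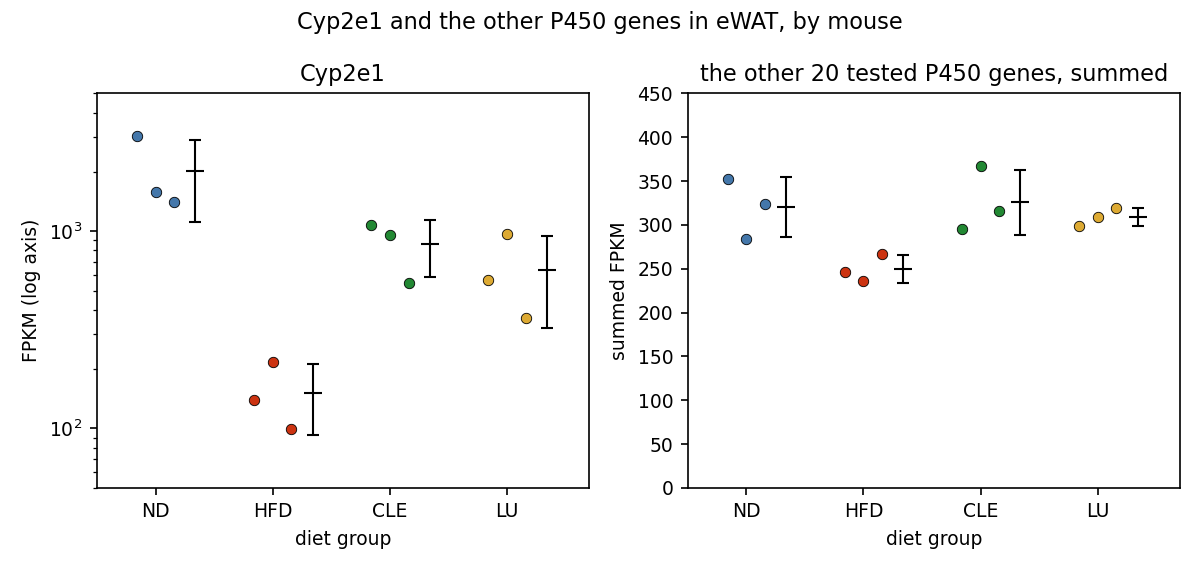
Cyp2e1 (left, FPKM on a log axis) and the sum of the other 20 tested P450 genes (right, FPKM) in each mouse of the 4 diet groups. Points are mice and the bars beside them are the mean ± SD (n = 3). The 3 HFD mice lie between 99.4 and 217 FPKM for Cyp2e1, under the lowest LU mouse at 363, while the summed other genes stay within 236 to 367 FPKM over all 12 mice.

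By rank, Cyp2e1 was between the 8th and the 20th most abundant gene in the ND libraries, out of 22868. It ranked 294 to 708 in HFD, 29 to 71 in CLE and 36 to 132 in LU. Its part of the summed FPKM of all 98 P450 genes was 81.0% to 89.4% in ND, 26.8% to 47.4% in HFD, 62.9% to 78.1% in CLE and 52.7% to 75.6% in LU. In every HFD library the rest of these 98 genes together outweighed Cyp2e1, and in every library of the other groups Cyp2e1 outweighed them. P450 genes that the name rule left out, described further below, are not in these sums. The other 20 tested P450 genes summed to 320 ± 34.3 FPKM in ND, 250 ± 15.5 in HFD, 326 ± 37.2 in CLE and 309 ± 10.01 in LU (SD, n = 3 each).

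Relative to the ND group, Cyp2e1 was 13.2-fold lower in the HFD group by the ratio of mean FPKM. On the log2(FPKM + 1) scale the difference was -3.70 ± 0.42 (SE), with an adjusted p of 2.7e-05 by limma. Compared with the HFD group, Cyp2e1 was 5.67-fold higher in the CLE group, with a log2 difference of 2.51 ± 0.42 and an adjusted p of 0.000876. In the LU group it was 4.17-fold higher than in the HFD group, with a log2 difference of 2.01 ± 0.42 and an adjusted p of 0.00492. These comparisons share the HFD mice and are not independent of each other. An exact permutation test of each of them (two-sided, 3 against 3 mice) gave p = 0.1, the smallest value this design allows.

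In the LU group Cyp2e1 was 3.17-fold lower than in the ND group (log2 difference -1.69 ± 0.42, adjusted p = 0.0216). This call was lost without ND mouse 2 (the highest ND library), without LU mouse 2 or without LU mouse 8, over a range of -2.06 to -1.35. In the CLE group the difference from ND was -1.19 ± 0.42 with a 95% interval of -2.10 to -0.28, which did not pass the test (adjusted p = 0.112) although the libraries did not overlap. Between the CLE and LU groups the difference was 0.50 ± 0.42 with a 95% interval of -0.41 to 1.41 (adjusted p = 0.909). The order of the means was thus ND, CLE, LU and HFD, and CLE and LU did not differ beyond their spread.

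Nearly all of the Cyp2e1 signal belonged to 1 assembled transcript. It spanned chr7:140763532-140774975 on the plus strand (coordinates match GRCm38), shared splice junctions with the annotated transcript and began 207 bases upstream of it. It held 97.3% to 99.3% of the Cyp2e1 FPKM in the 12 libraries. The annotated transcript, chr7:140763739-140774975, had the same order of groups at a far lower level, namely 25.4 ± 9.29 FPKM in ND, 16.5 ± 2.12 in CLE, 10.03 ± 6.53 in LU and 2.94 ± 2.07 in HFD. With the assembled transcripts left out, the LU difference from HFD was 1.34 (adjusted p = 0.0916) and no longer passed the test.

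Because the deposited starts differ from the RefSeq start, the stretch before the gene is shown, together with those of the pair of P450 genes whose levels followed Cyp2e1 most closely over the 12 libraries (Cyp27a1, r = 0.896, and Cyp2f2, r = 0.864; a description over libraries of 4 diets). Sequences are from the RefSeq promoter table for GRCm38.p6, plus strand, with bases from the window of 250 before the RefSeq start that precede the annotated GENCODE start. Capitals mark TATAAA, the TATA box. For Cyp2e1 the upstream stretch is chr7:140763569-140763738 and the stretch around the TATA box is chr7:140763776-140763805. The Cyp2f2 stretch is chr7:27119705-27119908, and the Cyp27a1 stretch is chr1:74713285-74713534.
Cyp2e1 upstream: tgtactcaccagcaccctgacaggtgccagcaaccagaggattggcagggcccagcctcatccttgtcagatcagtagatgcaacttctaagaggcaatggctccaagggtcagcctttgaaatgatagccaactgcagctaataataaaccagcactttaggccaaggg
Cyp2e1 TATA box: tcaacgacacgtTATAAAatccttgtttct
Cyp2f2 upstream: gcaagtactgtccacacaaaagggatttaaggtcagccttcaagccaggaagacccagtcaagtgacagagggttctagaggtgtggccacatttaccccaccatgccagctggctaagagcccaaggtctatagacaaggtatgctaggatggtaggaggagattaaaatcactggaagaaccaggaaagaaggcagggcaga
Cyp27a1 upstream: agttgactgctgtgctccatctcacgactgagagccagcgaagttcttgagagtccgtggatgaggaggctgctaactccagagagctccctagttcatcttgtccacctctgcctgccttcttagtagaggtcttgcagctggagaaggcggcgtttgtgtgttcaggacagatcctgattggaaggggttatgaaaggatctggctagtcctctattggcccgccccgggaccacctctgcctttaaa

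The TATA box of Cyp2e1 starts at position -31 from the RefSeq start at base 140763819, so both deposited transcripts start upstream of it. TATAAA was searched on both strands in the 250 bases before the start and occurred in 12.4% of 32851 promoters. Among the tested P450 genes, 16 had a promoter entry and 2 of them held it, Cyp2e1 and Cyp26b1. GCGTG, the core of the dioxin response element that the aryl hydrocarbon receptor binds, occurred in 28.2% of all promoters and in 6 of the 16, namely Cyp1b1, Cyp20a1, Cyp2ab1, Cyp2j9, Cyp4f16 and Cyp51. These matches are descriptions of the letters and not of binding.

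Outside the P450 family, the genes whose levels followed Cyp2e1 most closely over the 12 libraries were Isca1 (r = 0.991), one of the genes named Ptp4a1 (0.988), Csad (0.987), Trit1 (0.987) and Akt2 (0.986). Isca1 takes part in iron-sulphur cluster assembly, Csad in taurine synthesis, and Akt2 in insulin signalling. The most opposite genes were Atp6v0a1 (r = -0.989), Gusb (-0.986), Colgalt1 (-0.986), Man2b1 (-0.985) and Zdhhc9 (-0.984). Gusb and Man2b1 are lysosomal enzymes and Atp6v0a1 is a subunit of the proton pump that acidifies lysosomes. All of these points share the 12 libraries and their diets, so the r values only describe which genes ran along the same order of libraries.

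Among the 21 tested P450 genes, 8 changed between the HFD and ND groups. Here a gene counted as called when its adjusted p was under 0.05 and its fold change exceeded 1.5. Those higher in HFD were Cyp2c44, Cyp2r1 and Cyp4f18, which is 3 of 21, where 14.8% of all tested genes were called higher. Those lower in HFD were Cyp2e1, Cyp2f2, Cyp2d22, Cyp4f17 and Cyp27a1, which is 5 of 21, where 10.8% of all tested genes were called lower. The median log2 difference of the 21 genes was -0.04, and that of all tested genes was -0.02.

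Compared with the HFD group, 8 P450 genes also changed in the CLE group. Higher were Cyp2e1, Cyp2d22, Cyp27a1, Cyp4f17, Cyp2f2 and Cyp4b1, or 6 of 21, where 6.34% of all tested genes were called higher. Lower were Cyp2c44 and Cyp51, or 2 of 21, where 10.1% of all genes were called lower. In the LU group, Cyp2e1, Cyp4b1 and Cyp27a1 were higher than in HFD, or 3 of 21, beside 4.81% of all tested genes. Cyp2r1 and Cyp51 were lower, or 2 of 21, beside 7.64%. The count for CLE of 8 was 4 without HFD mouse 15 and 5 without CLE mouse 4. That for LU of 5 was 8 without ND mouse 2, and 3 without HFD mouse 15 or without LU mouse 2. Many P450 genes have close relatives beside them in the genome, as Cyp2d22, the Cyp2j and the Cyp4f genes do, and how reads shared among such copies were divided is not given in the sources used here.

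**Figure D2:**
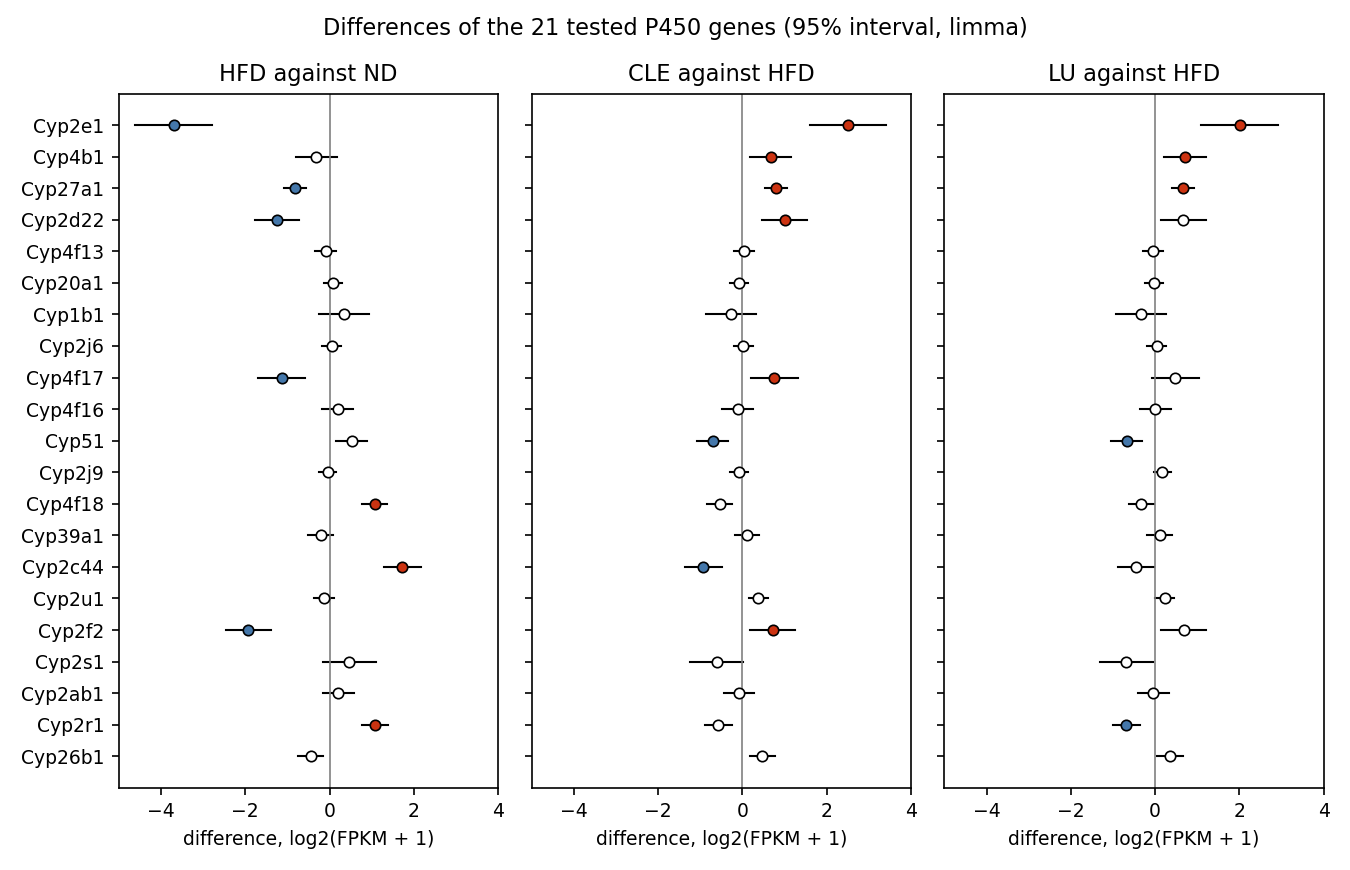
Difference of each of the 21 tested P450 genes on the log2(FPKM + 1) scale, with its 95% interval, for HFD against ND, CLE against HFD and LU against HFD. Red points were called higher, blue ones lower and open ones not called, and the genes are ordered by mean FPKM from the top. Cyp2e1 has the lowest point for HFD against ND, at -3.70, and the highest in the panels for CLE and LU, at 2.51 and 2.01.

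Of the enzymes in families 1 to 3, which handle foreign compounds, eicosanoids and fatty acids, 11 of 60 were tested. Between HFD and ND, 2 of the 11 rose and 3 fell, between CLE and HFD 3 rose and 1 fell, and between LU and HFD 1 rose and 1 fell. Their median log2 difference was 0.05 for HFD against ND, -0.08 for CLE against HFD and 0.03 for LU against HFD, beside -0.02, 0.01 and 0.03 for all tested genes. Thus the medians lay near those of all genes while single members moved apart.

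Cyp2d22, the mouse gene often set beside human CYP2D6 in drug metabolism, lies at chr15:82370527-82380260. It was 60.3, 33.1 and 46.1 FPKM in the ND mice and 19.5, 16.9 and 18.8 in the HFD mice. It was 33.1, 54.4 and 30.3 FPKM in the CLE mice and 29.5, 24.5 and 36.9 in the LU mice. All 3 HFD mice lay under the other 9. The HFD group was 2.52-fold lower than ND (log2 difference -1.25 ± 0.24, adjusted p = 0.00124), and the CLE group was 2.13-fold higher than HFD (1.01 ± 0.24, adjusted p = 0.00791). For LU against HFD the difference was 0.67 with a 95% interval of 0.14 to 1.20, and it did not pass the test (adjusted p = 0.0586).

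Cyp2f2, the enzyme known for activating naphthalene in the lung, was low but followed the diets. It was 5.64, 3.87 and 2.18 FPKM in ND, 0.218, 0.422 and 0.0719 in HFD, 1.51, 0.700 and 0.926 in CLE, and 1.31, 0.623 and 1.02 in LU. The HFD mice were lowest, the ND mice highest, and the CLE and LU mice in between with no overlap with either. HFD was 16.4-fold lower than ND by mean FPKM and differed by -1.93 ± 0.24 on the log2(FPKM + 1) scale (adjusted p = 6.2e-05), and CLE from HFD by 0.72 ± 0.24 (adjusted p = 0.0408). The CLE call was lost without any 1 of the HFD mice, CLE mouse 2 or 11, or LU mouse 8, over a range of 0.56 to 0.84. It was also lost with the transcript of the highest mean, at 0.31 (adjusted p = 0.412). Leaving out the class of assembled transcripts that share a junction lost it too, at an unchanged 0.72 (adjusted p = 0.0540). Cyp2f2 had 0 transcripts of that class, so its own values stayed the same and the other genes in the fit changed. LU differed from HFD by 0.68 (adjusted p = 0.0586), which was not called, and by 1.78 (adjusted p = 0.0167), which was, with a pseudocount of 0.1. An antisense gene, Gm15883, overlaps Cyp2f2, and the library kit did not keep the strand, so reads of the pair cannot be told apart.

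Cyp2c44, an epoxygenase of arachidonic acid (listed as Cyp2c23 in GENCODE), moved the other way. It was 0.135, 0.522 and 0.792 FPKM in ND and 3.74, 4.11 and 3.63 in HFD. In CLE it was 1.39, 1.41 and 1.82 FPKM, and in LU 1.69, 2.39 and 3.75. Every HFD, CLE and LU library was above every ND library, and LU mouse 8 reached into the HFD range. HFD was 7.92-fold higher than ND by mean FPKM (log2 difference 1.73 ± 0.20, adjusted p = 3.1e-05), and CLE was 2.48-fold lower than HFD (-0.93 ± 0.20, adjusted p = 0.00411). The LU difference from HFD was -0.46 with a 95% interval of -0.89 to -0.02 and did not pass the test (adjusted p = 0.111), and it passed without LU mouse 8, at -0.67.

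Cyp2r1 of these families is described with the vitamin D genes, and the other tested members were not called in any comparison. Cyp1b1, an oestrogen- and hydrocarbon-oxidising enzyme and a known target of the aryl hydrocarbon receptor, had means of 15.8 ± 6.30 FPKM in ND, 19.2 ± 1.17 in HFD, 16.2 ± 4.81 in CLE and 15.2 ± 2.49 in LU. Cyp2j6 and Cyp2j9, arachidonic acid epoxygenases, had group means of 14.9 to 15.9 and of 6.64 to 8.12 FPKM. Cyp2ab1 had group means of 0.997 to 1.31 FPKM. Cyp2u1, a fatty acid hydroxylase, was 0.38 ± 0.10 higher on the log2 scale in CLE than in HFD (adjusted p = 0.0155), under the fold threshold. Cyp2s1 was 0.491 and 1.06 FPKM in ND mice 2 and 3 but 3.24 in ND mouse 4, against 2.01 to 2.67 in HFD. It was not called for HFD against ND (0.47 ± 0.29, adjusted p = 0.193), and was called higher without ND mouse 4 (0.89, adjusted p = 0.00136). In CLE it was 0.899, 1.40 and 1.15 FPKM and in LU 1.21, 1.11 and 0.772, all below the HFD mice. These differences from HFD, -0.61 ± 0.29 for CLE (adjusted p = 0.127) and -0.69 ± 0.29 for LU (adjusted p = 0.0971), did not pass the test. ND mouse 4 also had the highest summed level of the mesothelial markers Msln, Upk3b, Wt1, Krt19 and Lrrn4, 53.3 FPKM against as little as 9.43 in another ND mouse, and the part of these cells in the Cyp2s1 value was not tested.

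**Figure D3:**
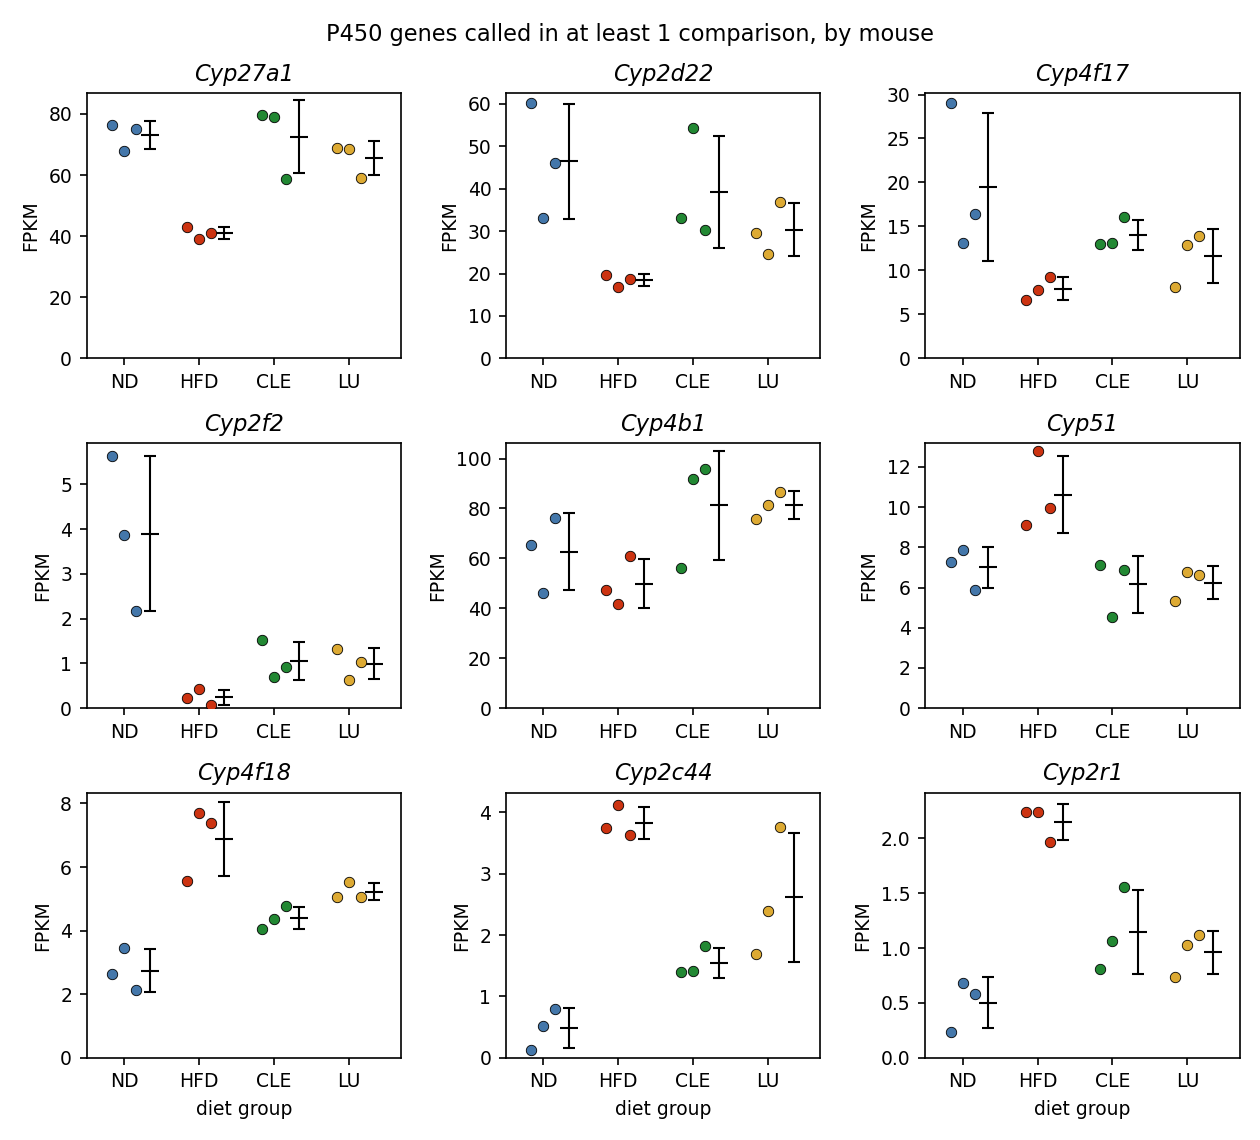
FPKM in each mouse of the 9 P450 genes other than Cyp2e1 that were called in at least 1 comparison. Points are mice of the 4 diet groups and the bars beside them are the mean ± SD (n = 3). Cyp27a1, Cyp2d22 and Cyp2f2 are lowest in the HFD mice, and Cyp4f17 has its lowest group mean there. Cyp51, Cyp4f18, Cyp2c44 and Cyp2r1 have their highest group mean in HFD.

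Family 4 holds the omega-hydroxylases, which oxidise the methyl end of fatty acids and leukotrienes, and 5 of its 19 members were tested. Between HFD and ND, Cyp4f18 rose and Cyp4f17 fell. Relative to HFD, Cyp4b1 and Cyp4f17 were higher in CLE and Cyp4b1 was higher in LU. The median log2 difference of the 5 genes was -0.09 for HFD against ND, 0.04 for CLE against HFD and 0.0018 for LU against HFD.

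Cyp4b1, which oxidises fatty acids and furans, lies at chr4:115624725-115647723. Among the P450 genes taken by the name rule it had the highest mean level after Cyp2e1, 68.7 FPKM over all libraries. Cyp4v3, which that rule left out and which is described further below, had a higher mean of 79.0 FPKM. Cyp4b1 was 65.5, 46.0 and 76.3 FPKM in ND, 47.2, 41.6 and 60.9 in HFD, 56.1, 91.6 and 95.8 in CLE, and 75.6, 81.4 and 86.8 in LU. CLE mouse 2 lay within the HFD range, and all LU mice lay above it. CLE was 1.63-fold higher than HFD (log2 difference 0.67 ± 0.22, adjusted p = 0.0381), and so was LU (0.71 ± 0.22, adjusted p = 0.0363). Between HFD and ND the difference was -0.31 with a 95% interval of -0.80 to 0.18. Both calls were lost without HFD mouse 12 or 15, that for CLE without CLE mouse 4 or 11 (range 0.53 to 0.91) and that for LU without any 1 of the LU mice (range 0.59 to 0.86).

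Cyp4f17 was 28.996, 13.1 and 16.5 FPKM in ND, 6.66, 7.81 and 9.24 in HFD, 13.0, 13.1 and 16.0 in CLE, and 8.10, 12.9 and 13.9 in LU. The ND and CLE mice were all above the HFD mice, and LU mouse 2 lay within the HFD range. HFD was 2.47-fold lower than ND (log2 difference -1.14 ± 0.26, adjusted p = 0.00337), and CLE was 1.77-fold higher than HFD (0.76 ± 0.26, adjusted p = 0.0400). The CLE call was lost without any 1 of the HFD or CLE mice, over a range of 0.66 to 0.87, and at 0.61 with the transcript of the highest mean (adjusted p = 0.162).

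Cyp4f18, which inactivates leukotriene B4 in neutrophils and other white blood cells, was highest in HFD. It was 2.64, 3.45 and 2.14 FPKM in ND, 5.55, 7.69 and 7.38 in HFD, 4.05, 4.38 and 4.76 in CLE, and 5.06, 5.53 and 5.07 in LU. HFD was 2.50-fold higher than ND (log2 difference 1.08 ± 0.14, adjusted p = 6.5e-05). CLE differed from HFD by -0.54 ± 0.14 (adjusted p = 0.0108), under the fold threshold, and was called lower with a pseudocount of 0.1 (-0.62, adjusted p = 0.0167). The protein-coding gene Zfp961 overlaps Cyp4f18 on the opposite strand. The other 2 tested genes of the family, Cyp4f13 and Cyp4f16, had group means of 25.9 to 28.6 and of 11.7 to 13.7 FPKM and were not called between any groups.

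The sterol enzymes differed among themselves. Of 7 genes of cholesterol and bile acid metabolism 3 were tested, and Cyp27a1 and Cyp51 were called while Cyp39a1, an oxysterol hydroxylase, was not. Cyp27a1, the mitochondrial sterol hydroxylase that also begins one route of bile acid synthesis, lies at chr1:74713574-74737892. It was 76.3, 68.0 and 75.0 FPKM in ND, 43.0, 39.0 and 41.1 in HFD, 79.8, 79.0 and 58.7 in CLE, and 68.9, 68.6 and 59.0 in LU. The HFD mice stood apart below the other 9. HFD was 1.78-fold lower than ND (log2 difference -0.82 ± 0.12, adjusted p = 0.000186), CLE was 1.77-fold higher than HFD (0.79 ± 0.12, adjusted p = 0.000484), and LU was 1.60-fold higher (0.66 ± 0.12, adjusted p = 0.00243). These calls held in all 12 fits that left out 1 mouse.

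Cyp51, the lanosterol demethylase of cholesterol synthesis, was 7.27, 7.89 and 5.89 FPKM in ND, 9.10, 12.8 and 9.96 in HFD, 7.10, 4.54 and 6.86 in CLE, and 5.32, 6.80 and 6.62 in LU. The HFD mice were above all the others. CLE was 1.72-fold lower than HFD (log2 difference -0.70 ± 0.17, adjusted p = 0.00775) and LU 1.70-fold lower (-0.67 ± 0.17, adjusted p = 0.0128). The HFD difference from ND was 0.53 ± 0.17 (adjusted p = 0.0210) and stayed under the fold threshold, and it was called with a pseudocount of 0.1 (0.59, adjusted p = 0.0278). Without HFD mouse 15 the CLE and LU calls were both lost, as was that for CLE without CLE mouse 4 (range -0.80 to -0.53) and that for LU without LU mouse 2 (range -0.77 to -0.54). Akap9 overlaps Cyp51 on the opposite strand.

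Of 6 genes that act on vitamin A or vitamin D, 2 were tested. Cyp2r1, a vitamin D hydroxylase, was 0.238, 0.686 and 0.584 FPKM in ND, 2.24, 2.24 and 1.96 in HFD, 0.808, 1.06 and 1.56 in CLE, and 0.740, 1.03 and 1.12 in LU. The HFD mice were highest and the ND mice lowest, with no overlap with the CLE and LU mice. HFD was 4.28-fold higher than ND (log2 difference 1.08 ± 0.15, adjusted p = 0.0001), and LU was 2.24-fold lower than HFD (-0.69 ± 0.15, adjusted p = 0.00545). CLE was 1.88-fold lower than HFD by mean FPKM, and its log2 difference of -0.57 ± 0.15 (adjusted p = 0.0109) was under the fold threshold. With a pseudocount of 0.1 that difference was called, at -0.90 (adjusted p = 0.0442). Cyp26b1, which breaks down retinoic acid, had means of 1.15 ± 0.27 FPKM in ND, 0.575 ± 0.14 in HFD, 1.19 ± 0.15 in CLE and 1.02 ± 0.36 in LU, and its differences stayed under the fold threshold on this scale, which understates changes of genes near 1 FPKM. With a pseudocount of 0.1, Cyp26b1 was called lower in HFD than in ND (-0.89, adjusted p = 0.0131) and higher in CLE than in HFD (0.95, adjusted p = 0.0151). Cyp20a1, an orphan P450 with no settled substrate, had group means of 17.6 to 18.7 FPKM and was not called between any groups.

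Between CLE and LU none of the 21 P450 genes was called by limma, where 0.00783% of all tested genes, that is 1 gene, was called. At an unadjusted p under 0.05 there were 2 P450 genes, and 672 genes in all. These were Cyp2c44, at -0.47 with a 95% interval of -0.91 to -0.04 for CLE minus LU, and Cyp2j9, at -0.25 with an interval of -0.46 to -0.05 (adjusted p = 0.890 for both). Over the 21 genes the lowest end of a 95% interval was -0.91, for Cyp2c44, and the highest was 1.41, for Cyp2e1. Intervals of other genes were narrower, such as -0.27 to 0.16 for Cyp20a1. For each gene, differences within its own interval were not resolved with 3 mice in a group.

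Relative to the ND group, Cyp2c44 was higher in CLE (log2 difference 0.80 ± 0.20, adjusted p = 0.0432), or 1 of 21 beside 2.07% of all tested genes called higher. Cyp2f2 was lower in CLE (-1.21 ± 0.24, adjusted p = 0.0208), or 1 of 21 beside 0.854%. In LU, Cyp2c44 (1.27 ± 0.20, adjusted p = 0.00284) and Cyp4f18 (0.75 ± 0.14, adjusted p = 0.00569) were higher than in ND, or 2 of 21 beside 4.97%. Cyp2e1 and Cyp2f2 (-1.25 ± 0.24, adjusted p = 0.00762) were lower in LU, or 2 of 21 beside 1.62%. Both CLE calls were lost with no filter on low values. In the fits that left out 1 mouse, that of Cyp2c44 held in 3 of 12, namely without ND mouse 4, LU mouse 2 or LU mouse 8, and that of Cyp2f2 was lost without ND mouse 2 or 3 or CLE mouse 4 or 11.

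Several calls of P450 genes changed in the fits that took the letter R in the labels into account. With the letter as a covariate, Cyp4b1 was no longer called for CLE against HFD (adjusted p = 0.0616) or LU against HFD (adjusted p = 0.0592), nor Cyp51 for LU against HFD (-0.58, under the fold threshold), nor Cyp2c44 for CLE against ND (adjusted p = 0.0733). In the same fit Cyp2s1 was called for HFD against ND (0.79, adjusted p = 0.0474), CLE against HFD (-0.76, adjusted p = 0.0464) and LU against HFD (-0.85, adjusted p = 0.0378), Cyp2f2 for LU against HFD (0.76, adjusted p = 0.0476), and Cyp4f17 for LU against HFD (0.67, adjusted p = 0.0230) and LU against ND (-0.85, adjusted p = 0.0163). Leaving out the 4 libraries kept ND mouse 2 alone in its group, beside CLE mice 2 and 11, LU mice 3 and 8 and all HFD mice. There the calls for CLE and LU against HFD were lost for Cyp4b1 (0.565 and 0.76) and for Cyp51 (-0.53 and -0.58). Cyp2s1 was called lower in CLE (-0.69) and LU (-0.75) than in HFD, and Cyp4f17 (0.70) and Cyp2d22 (0.68) higher in LU than in HFD. Against the single ND mouse only effect sizes are given. They were -2.36 for Cyp2e1, 0.79 for Cyp4f18 and -1.06 for Cyp4f17 in LU against ND, and 1.13 for Cyp2s1 in HFD against ND.

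The genes that serve P450 enzymes were examined as further lists. All 9 redox partners were tested, 1 of which, Fdx1l, the list also held under its other symbol Fdx2. Relative to ND, the HFD group was lower in Por, Fdx1 and Pgrmc1, a heme-binding P450 partner, and higher in Cyb5b and Cyb5r3, the outer mitochondrial cytochrome b5 and the reductase of cytochrome b5. Relative to HFD, Por and Fdx1 were higher and Cyb5b lower in CLE, and Fdx1 was higher in LU. The median log2 difference of the list was -0.56 for HFD against ND, 0.22 for CLE against HFD and 0.21 for LU against HFD.

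Por was 353, 298 and 298 FPKM in ND, 171, 165 and 175 in HFD, 334, 318 and 209.5 in CLE, and 274, 233 and 226 in LU. The HFD mice were below all the others. HFD differed from ND by -0.89 ± 0.16 (adjusted p = 0.000729) and CLE from HFD by 0.72 ± 0.16 (adjusted p = 0.0047). LU differed from HFD by 0.51 ± 0.16 (adjusted p = 0.0319), under the fold threshold. Fdx1 had means of 44.2 ± 3.01 FPKM in ND, 18.1 ± 1.33 in HFD, 34.7 ± 1.34 in CLE and 33.5 ± 5.16 in LU. It differed by -1.24 ± 0.11 for HFD against ND (adjusted p = 5.5e-06), by 0.90 ± 0.11 for CLE against HFD (adjusted p = 0.000129) and by 0.85 ± 0.11 for LU against HFD (adjusted p = 0.000413).

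All 12 genes of heme synthesis and breakdown were tested. Between HFD and ND, Hmox1, Blvra and Blvrb of heme breakdown rose, and Alad and Ppox of heme synthesis fell. Hmox1, the inducible heme oxygenase, had means of 13.1 ± 0.36 FPKM in ND, 58.3 ± 6.56 in HFD, 22.4 ± 4.68 in CLE and 27.1 ± 1.63 in LU, and was lower in CLE (-1.35 ± 0.13, adjusted p = 3.6e-05) and LU (-1.08 ± 0.13, adjusted p = 0.00027) than in HFD. Alas1, the rate-limiting enzyme of heme synthesis, was not called, with means of 149 ± 30.9 in ND, 122.6 ± 5.56 in HFD, 171 ± 26.3 in CLE and 148 ± 7.57 in LU. The median log2 difference of the list for HFD against ND was -0.11.

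**Figure D4:**
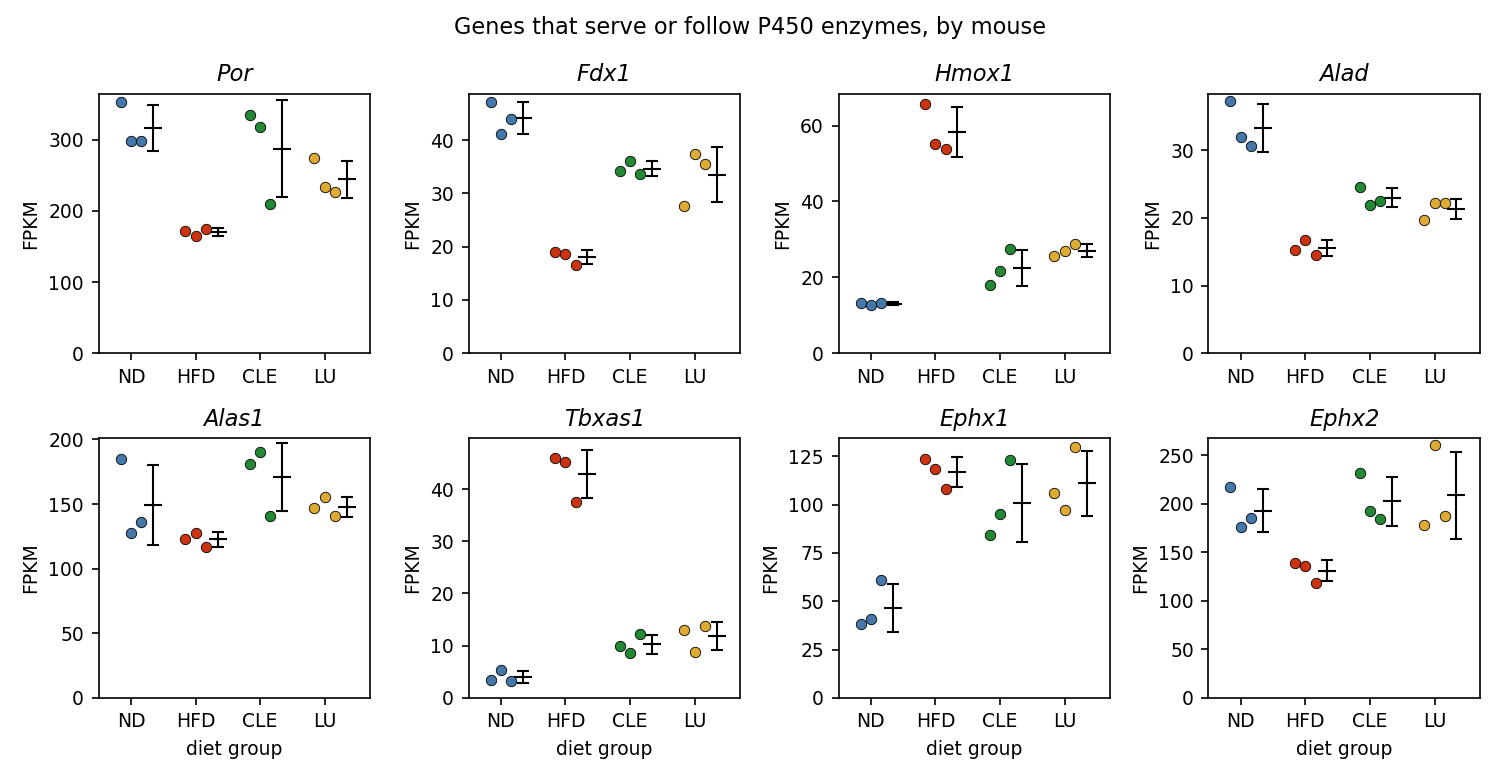
FPKM in each mouse of 8 genes that supply P450 enzymes with electrons or heme, break heme down, or act on the same lipids or on P450 products. Points are mice of the 4 diet groups and the bars beside them are the mean ± SD (n = 3). Por and Fdx1 are lowest in the HFD mice, and Hmox1 and Tbxas1 are highest there, with means of 58.3 and 42.9 FPKM.

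A pair of P450 enzymes has no Cyp symbol. Tbxas1, thromboxane synthase, was 3.42, 5.30 and 3.22 FPKM in ND, 45.9, 45.1 and 37.5 in HFD, 9.87, 8.66 and 12.3 in CLE, and 13.0, 8.75 and 13.7 in LU. It differed by 3.16 ± 0.19 for HFD against ND (adjusted p = 7.1e-07), by -1.97 ± 0.19 for CLE against HFD (adjusted p = 3.6e-05) and by -1.79 ± 0.19 for LU against HFD (adjusted p = 0.000185). Ptgis, prostacyclin synthase, was not called, with means of 9.90 ± 1.30, 7.22 ± 0.85, 7.62 ± 1.43 and 8.34 ± 1.47 FPKM in ND, HFD, CLE and LU. Cyp4v3, a fatty acid hydroxylase, was filed in the table under Klkb1 and was therefore no member. Its means were 54.8 ± 11.02 FPKM in ND, 73.4 ± 7.49 in HFD, 96.6 ± 5.47 in CLE and 91.4 ± 13.6 in LU, and it was higher in CLE (0.82 ± 0.14, adjusted p = 0.0148) and LU (0.73 ± 0.14, adjusted p = 0.00817) than in ND.

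The epoxide hydrolases, which take up the epoxides that P450 enzymes make, moved apart. Ephx1, the microsomal enzyme, was 38.4, 40.8 and 61.0 FPKM in ND and 123.5, 118.5 and 108 in HFD (log2 difference 1.33 ± 0.18, adjusted p = 0.000122). In CLE and LU it stayed at 101 ± 20.1 and 111 ± 16.8 FPKM, above ND by 1.11 ± 0.18 and 1.25 ± 0.18. Ephx2, the soluble enzyme, was higher in CLE (0.62 ± 0.15, adjusted p = 0.00819) and LU (0.65 ± 0.15, adjusted p = 0.00873) than in HFD, with means of 193 ± 21.9, 131 ± 11.04, 203 ± 25.2 and 208 ± 45.3 FPKM in ND, HFD, CLE and LU. Of 4 genes of the list, 3 were tested.

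Of 21 regulators of P450 genes, 14 were tested. Rara, a retinoic acid receptor, rose in HFD relative to ND (0.70 ± 0.13, adjusted p = 0.00117), and Nr5a2, a nuclear receptor that acts on bile acid genes in the liver, was higher in CLE than in HFD (0.61 ± 0.21, adjusted p = 0.0431). The aryl hydrocarbon receptor Ahr, with group means of 3.42 to 5.16 FPKM, and Ppara, with 2.39 to 3.10, were not called. The xenobiotic receptors Nr1i2 and Nr1i3 were nearly absent, with group means of at most 0.0758 FPKM.

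The markers of other cell types moved with the diets as well. All 7 macrophage markers (Adgre1, Cd68, Itgax, Csf1r, Cd14, Lyz2 and Mrc1) rose in HFD and fell in CLE and LU relative to HFD, and their summed level was 318 to 484 FPKM in ND, 2220 to 2570 in HFD, 556 to 836 in CLE and 884 to 1012 in LU. Of the 7 fat cell markers, 5 fell and Lep rose in HFD. Relative to HFD, 5 were higher in CLE and 2 in LU, and Lep was lower in both. Their sum was 29540 to 31201 FPKM in ND, 19448 to 21650 in HFD, 26622 to 29287 in CLE and 24935 to 30228 in LU. None of the 6 progenitor markers was called in these comparisons by limma. Of the 5 endothelial markers Cldn5 fell in HFD, 3 were higher in CLE than in HFD and 4 in LU. Of the 5 mesothelial markers 4 fell in HFD, with sums of 9.43 to 53.3 FPKM in ND and 2.29 to 7.01 in HFD. The part of these cell types in the P450 differences was not tested.

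Cyp2e1 and Cyp2f2 are also liver genes, so liver markers were set beside them. The sum of 8 liver markers was 17.0 to 38.1 FPKM in ND, 3.52 to 14.1 in HFD, 9.62 to 32.8 in CLE and 6.55 to 9.21 in LU. Alb, the most abundant of them, had a mean of 14.7 ± 4.38 FPKM in ND and 2.60 ± 1.92 in HFD and was called lower in HFD (-2.23 ± 0.37, adjusted p = 0.000415), as was Serpina1a, which made 2 of 7 tested liver markers. Alb was higher in CLE than in HFD, and no liver marker was called for LU against HFD by limma. Of P450 genes best known from liver, Cyp1a2, Cyp7a1 and Cyp2c29 had highest values of 0.0756, 0.0263 and 0.168 FPKM, whereas Cyp3a11 reached 0.648 in CLE mouse 2, Cyp4a10 0.544 in ND mouse 2, Cyp2d9 0.502 in LU mouse 8 and Cyp2d26 0.329 in ND mouse 2. ND mouse 2 and CLE mouse 2 had the highest liver marker sums, 38.1 and 32.8 FPKM, and also the highest Cyp2e1 of their groups. LU mouse 3 was likewise highest of its group in both. Within ND and within LU, all mice had the same order by liver marker sum as by Cyp2e1. The order differed within HFD and within CLE: HFD mouse 12 had the highest liver sum of HFD (14.1) but less Cyp2e1 (139.9 FPKM) than HFD mouse 15 (217). CLE mouse 4 had the lowest liver sum of CLE (9.62) but more Cyp2e1 (956 FPKM) than CLE mouse 11 (549). Without ND mouse 2 the Cyp2e1 difference between HFD and ND was -3.36 (adjusted p = 0.000159), and without CLE mouse 2 that between CLE and HFD was 2.32 (adjusted p = 0.00495). Lcn5 of the epididymis and Insl3 of the testis were listed at 0 in every library, and the 9 markers of these organs summed to at most 6.80 FPKM. The highest single values among the 9 were Crisp1 at 5.13 FPKM in ND mouse 4 and 2.17 in LU mouse 3, and Spag11b at 2.34 and Adam7 at 2.08 in LU mouse 8. The 4 skeletal muscle markers in the table summed to at most 15.8 FPKM, in a CLE library. The part of liver or other tissue in the Cyp2e1 and Cyp2f2 values was not tested beyond these levels.

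Of the 77 P450 genes that were not tested, 75 never reached 1 FPKM, and 17 of these were listed at 0 in every library. The highest value was under 0.1 FPKM for 42 of the 77, the latter 17 included, and 0.1 to under 1 FPKM for 33. Cyp4a14, a fatty acid omega-hydroxylase, reached 1.58 FPKM in ND mouse 2 and 1.24 in CLE mouse 11, and was under 1 in the other libraries. Cyp4f39 reached 1.13 FPKM in 1 HFD library. None of the 6 genes of steroid hormone synthesis was tested: the highest value among them was 0.439 FPKM, for Cyp17a1, and the aromatase gene Cyp19a1 did not exceed 0.0216 FPKM.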

How the data were processed

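Expression of eWAT was measured by RNA-seq in 12 mice, 3 in each of the ND, HFD, CLE and LU groups, which were taken from the sample labels. The authors prepared TruSeq libraries that keep no strand, and deposited FPKM values per transcript, annotated or assembled, normalised for transcript length and library total. The submitters' processing notes name CASAVA 1.8.2, Bowtie2 2.2.3, TopHat2 2.0.12 and Cufflinks 2.2.1. The build is not given in the sources used here, but 87.6% of annotated transcripts had the start and end of GENCODE M21 (GRCm38). The column headed MD4 was assigned to ND mouse 4 by inference from its header. The table has 15 FPKM columns, of which 3 belong to no sample and stayed unused. Columns that hold the authors' own comparisons between groups (calls by fold change and p-value) were not used.

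P450 transcripts (189 annotated, 15 matching an annotated transcript and 166 sharing a junction with one) were summed by the gene name of the table, and all other transcripts by GENCODE gene. Genes that reached 1 FPKM in 3 or more libraries were tested on log2(FPKM + 1) with limma 3.58.1 in R 4.3.3, with 1 coefficient per group over all 12 libraries. Benjamini-Hochberg adjusted p-values were computed over 12769 genes within each comparison. The counts used by the authors for DEGseq were not used here, and the deposited FPKM carry no depth, so no counting error is given. The 3 libraries of a group come from separate mice. The fit was tested on simulated data before use. Sums, permutation tests and plots used Python 3.11.15 with pandas 2.3.3, numpy 2.4.6, scipy 1.17.1 and matplotlib 3.10.9.

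Named genes are Cyp2e1, every P450 gene called in any comparison, every other one with a mean of 5 FPKM or more, those at 1 FPKM or more in 1 or 2 libraries, and the 5 genes most and least correlated with Cyp2e1. Further tested or untested members, and the list genes named, were picked after their values were seen. The P450 genes and lists were chosen with earlier results of these data known. Alternatives tried were the pseudocount 0.1, no filter, median-ratio or quantile scaling, the transcript with the highest mean, no assembled transcripts of class j, the letter R as a covariate, no libraries with that letter, a replicate block, the adjusted p alone and leaving out each library. Summing all genes by the table's gene name, and the separate Cyp2e1 transcripts, were chosen after seeing the data. Protein sequences were not used here, and 1 gene of the regulator list is not reported here.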

Additional observations from a re-analysis of the deposited data

How the results depend on the processing

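None of the log2 differences of P450 genes that were called in the main fit changed direction under the alternatives run. Differences that were not called could turn, as that of Cyp2s1 for LU against ND did without ND mouse 4. The lists of other genes were not recomputed. The median of all tested genes, 0.0052 for CLE against HFD, did turn, for example to -0.0029 without the libraries with the letter R. Median-ratio and quantile scaling kept all 27 calls of a P450 gene in a comparison. Over the fits that left out 1 mouse, 18 of the 27 calls held in all 12. These fits gave 8 to 9 called P450 genes for HFD against ND, 4 to 9 for CLE against HFD, 3 to 8 for LU against HFD, 0 for CLE against LU, 0 to 2 for CLE against ND and 3 to 4 for LU against ND. The Cyp2e1 log2 difference ranged from -3.99 to -3.36 for HFD against ND, 2.24 to 2.81 for CLE against HFD, 1.64 to 2.35 for LU against HFD, 0.16 to 0.87 for CLE against LU, -1.41 to -0.85 for CLE against ND and -2.06 to -1.35 for LU against ND.

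With no filter on low values, more genes were tested and the count for CLE against HFD fell to 5, that for CLE against ND to 0, and the Cyp2e1 difference of -1.69 for LU against ND was no longer called (adjusted p = 0.0926). Without the transcripts of class j the counts were 5 for CLE against HFD, 1 for CLE against ND and 2 for LU against ND, and Cyp2e1 lost its call for LU against HFD (1.34) and LU against ND (-1.46, adjusted p = 0.112). The count for CLE against ND was 1 with the transcript of the highest mean and 1 with the letter R as a covariate. Without the libraries with the letter R, which left ND mouse 2 alone in its group, Cyp2e1 differed by -2.36 for LU against ND. The cause was not tested. The mouse numbers 2, 3 and 4 recur among ND, CLE and LU but not HFD, and deviations of same-numbered mice correlated at -0.0993 to 0.189. Differently numbered mice were not compared in this way, so these values cannot show whether same-numbered mice share more than the number. With the number as a replicate block, 0 P450 genes were called for CLE against ND, 2 for LU against ND, and Cyp2e1 differed by -1.50 for LU against ND (adjusted p = 0.0994). The unknown depth limits what can be said of genes near 1 FPKM.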
